A study of Mus musculus with 8 samples.

Results

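The endoplasmic reticulum (ER) folds secreted and membrane proteins, and 35 genes of its folding machinery and of its stress response were followed in macrophages grown from the bone marrow of NIK knockout (NIK KO) and wild-type (WT) mice. NIK is the NF-κB-inducing kinase, which starts noncanonical NF-κB signalling. The genes were taken by symbol from a list of 35 and all 35 have a row in both result tables, of 14193 genes (IL-4) and 13676 genes (PBS). They were sorted into 6 classes: 11 chaperones and cochaperones, 5 genes of disulfide formation, 7 of ER-associated degradation, 2 of the translocon, 5 stress sensors and transcription factors, and 5 targets of the ATF4 and CHOP branch.

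Cells came from female mice 12 weeks old, 2 NIK KO and 2 WT, and those of each mouse were kept for 6 hours with 20 ng/mL of interleukin 4 (IL-4) or with PBS. All groups shared 7 days of growth in medium with 30% supernatant of L929 cells, a fibroblast line that supplies the growth factor M-CSF, and replating in 5% of it. The 4 groups were thus NIK KO with IL-4, WT with IL-4, NIK KO with PBS and WT with PBS, 8 libraries in all. Neither the labels nor the tables say which piece of the NIK gene these mice lack.

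The deposited tables hold 1 value per gene and comparison, so values per mouse and sequencing depths cannot be shown. Base means, the authors' normalized counts averaged over the 4 libraries of a table, summed to 1.417e+07 with PBS and 1.655e+07 with IL-4. Means for a genotype are not among the deposited values. Here and throughout they were recovered from base mean and fold change. Map3k14, the gene of NIK, stood above WT under both treatments in the authors' deposited tables, in the libraries labelled NIK KO at 832 against 418 in WT with IL-4 and 902 against 425 with PBS (log2 fold change 0.99 ± 0.22 and 1.09 ± 0.28, standard error of the authors' fit; DESeq2 adjusted p = 0.00782 and 0.176). The label of a knockout would not by itself lead to a higher count. Counts per gene do not tell a transcript that lacks a piece from a whole one, so the genotype could not be checked from them. The direction, NIK KO over WT, is that of the name of the IL-4 table, applied to both, and if it were reversed every sign below would turn. All 10 macrophage markers were measured, with summed mean normalized counts of 481211 in the libraries labelled NIK KO and 505802 in WT with IL-4, and of 652077 and 639599 with PBS. Lyz2, the gene of a lysozyme, made up 318214 and 370074 of the sums with IL-4. Of the 10 markers, 7 were higher with IL-4 and 6 with PBS, with median log2 fold changes of 0.086 and 0.027 and 0 called. Adgre1, which encodes F4/80, was in the authors' deposited table at 0.54 ± 0.18 with IL-4 (DESeq2 adjusted p = 0.672).

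A cell under ER stress answers through 3 sensors in the ER membrane. IRE1, encoded by Ern1, splices the mRNA of Xbp1; ATF6 is cut and its released part enters the nucleus; and PERK, encoded by Eif2ak3, slows translation while that of ATF4 rises. XBP1 and ATF6 act on chaperone and degradation genes, ATF4 on genes of amino acid supply and, with CHOP (Ddit3), of cell death. Macrophages secrete enzymes and cytokines and carry many glycoprotein receptors, and depend on this machinery for both. IL-4 turns them to the alternatively activated state.

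The promoters are shown first, because they hold the elements known for each branch of the response. RefSeq windows of build GRCm38.p6, from 250 bases before the start site to 50 after it, were matched for 30 of the 35 genes, Ero1l under its present symbol Ero1a. Hyou1, Manf, Derl1, Sec61a1 and Atf6 had no entry. Both strands were searched for the ER stress element, CCAAT and CCACG with any 9 bases between, through which ATF6 and XBP1 act together with NF-Y. It was found in 8 of 30 members (26.7%), and in 39 of all 32851 promoter windows (0.119%). Hsp90b1 held 2 copies, which makes 9 sites. They are printed 5′ to 3′ in the direction of the element, on its strand, with the fixed letters in capitals and the spacer in lower case, so that the fixed ends and the free spacer can be compared.
Hspa5, chr2:34772025-34772043, plus strand: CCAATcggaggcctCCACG
Hsp90b1, chr10:86705638-86705656, minus strand: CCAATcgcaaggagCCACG
Hsp90b1, chr10:86705533-86705551, plus strand: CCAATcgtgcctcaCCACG
Dnajc3, chr14:118937827-118937845, plus strand: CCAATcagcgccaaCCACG
Calr, chr8:84847075-84847093, plus strand: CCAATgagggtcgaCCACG
Canx, chr11:50325800-50325818, minus strand: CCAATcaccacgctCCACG
Creld2, chr15:88819520-88819538, minus strand: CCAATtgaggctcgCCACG
Pdia6, chr12:17266491-17266509, plus strand: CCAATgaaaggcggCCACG
Syvn1, chr19:6046532-6046550, plus strand: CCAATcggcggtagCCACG

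The sites began between 44 bases (Syvn1) and 212 bases (Hsp90b1) before the start site. Of the 8 genes, 6 are chaperones, 1 is an isomerase and 1, Syvn1, is the ubiquitin ligase of ER-associated degradation. The related ER stress element II, ATTGG and CCACG with any 1 base between, stood in Dnajb11 and Herpud1 (6.67% of 30 members, 0.0365% of all promoter windows). The C/EBP-ATF element TGATGNAA, read by ATF4 and its partners, stood in Herpud1, Trib3, Asns and Chac1 (13.3% of members, 3.97% of all windows). The UPR element core TGACGTGG was in 0 of 30 members and in 0.676% of all windows. Shares of members count genes, of which Derl2 has 2 windows, and shares of all count windows. The STAT6 element, TTC and GAA with any 4 bases between, named for the factor that IL-4 activates, was in the window of Chac1 (3.33% of members, 6.95% of all windows). Both ER stress elements end with the same CCACG. A match describes the letters and does not show binding.

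The promoters below stand for the classes: Hspa5 carries the ER stress element, Asns the C/EBP-ATF element, and Herpud1 both ER stress element II and a C/EBP-ATF element. Each is the 250 bases before the start site, in the direction of the gene, with those elements in capitals; that of Herpud1 for ATF4 reads on the opposite strand.
Hspa5, chr2:34771840-34772089, plus strand: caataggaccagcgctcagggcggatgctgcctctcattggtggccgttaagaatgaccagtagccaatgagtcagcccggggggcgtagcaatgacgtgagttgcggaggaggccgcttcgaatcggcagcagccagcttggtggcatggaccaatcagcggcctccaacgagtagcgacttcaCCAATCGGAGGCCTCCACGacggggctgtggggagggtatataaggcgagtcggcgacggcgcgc
Herpud1, chr8:94386179-94386428, plus strand: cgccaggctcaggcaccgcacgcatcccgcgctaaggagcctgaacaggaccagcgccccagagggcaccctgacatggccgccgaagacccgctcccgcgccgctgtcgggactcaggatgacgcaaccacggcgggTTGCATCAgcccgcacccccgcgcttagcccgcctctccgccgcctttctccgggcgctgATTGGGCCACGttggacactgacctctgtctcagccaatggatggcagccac
Asns, chr6:7693210-7693459, minus strand: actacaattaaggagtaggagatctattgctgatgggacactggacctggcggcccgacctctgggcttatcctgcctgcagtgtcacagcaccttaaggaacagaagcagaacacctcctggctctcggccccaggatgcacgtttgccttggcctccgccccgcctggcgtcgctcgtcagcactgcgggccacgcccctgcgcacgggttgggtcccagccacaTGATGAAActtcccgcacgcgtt

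**Figure D1:**
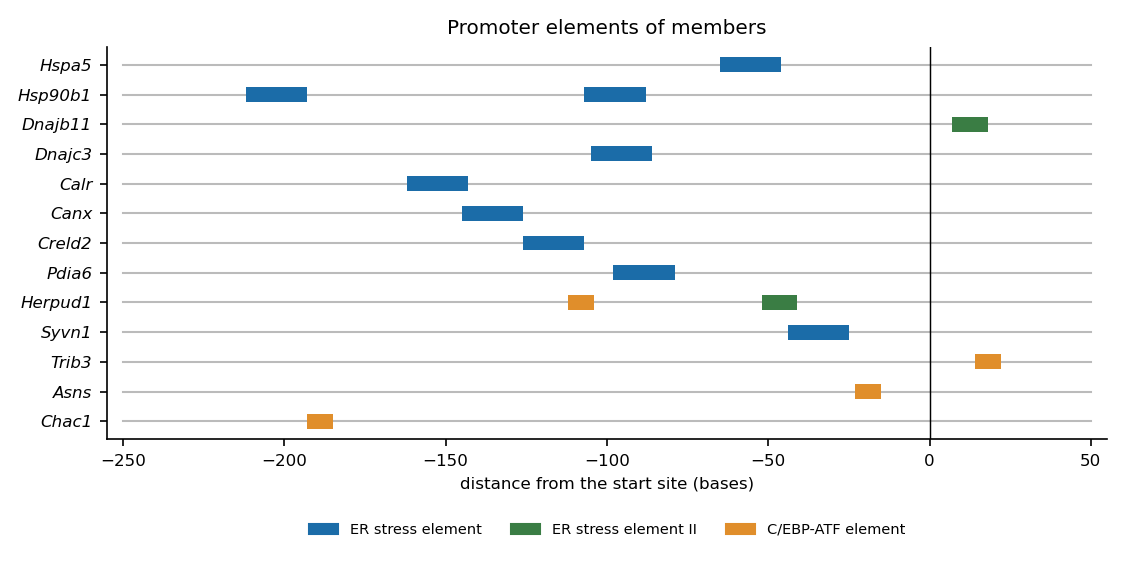
Position of the ER stress element, ER stress element II and the C/EBP-ATF element in the promoter windows of the 13 members that hold one, in bases from the start site (vertical line at 0). The first begins between 44 and 212 bases before the start site in 8 genes, and the C/EBP-ATF element stands in 4.

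No gene of the ER folding machinery or its stress response among the 35 was called in the libraries labelled NIK KO, under either treatment. Of the 35 genes, DESeq2 called 0 with PBS and 0 with IL-4 at an adjusted p under 0.05, where it called 0.0366% and 0.125% of all genes tested. At an unadjusted p under 0.05 stood 0 members with each treatment, against 1.24% and 2.95% of all genes. With so few calls in the tables, a count of 0 among 35 does not set these genes apart from others. Every member had a DESeq2 adjusted p of 1.00 in the authors' deposited tables. The log2 fold changes of NIK KO over WT lay between -0.31 and 0.34 with PBS and between -0.26 and 0.33 with IL-4. Their standard errors had medians of 0.28 and 0.19, and with PBS 33 of 35 changes and with IL-4 28 of 35 were no larger than their own error. The others, 2 and 7 members, stand beside 1941 of 13676 genes with PBS and 3213 of 14193 with IL-4 whose change exceeded its error. Most genes of both tables thus share this trait.

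The intervals say how large a change could have gone unseen. The 95% interval, the log2 fold change with 1.96 standard errors on either side, lay within 2-fold up or down for 33 of 35 members with PBS and for 33 of 35 with IL-4, the exceptions being Trib3 and Chac1. Among all genes with a base mean of 100 or more the same held for 87.3% and 92.8%. It lay within 1.5-fold for 5 members with PBS and for 25 with IL-4. Among genes with a base mean of 100 or more this held for 1351 of 9266 with PBS and 4766 of 9513 with IL-4, so the rise with IL-4 was not particular to the members. The smallest Wald statistic, the fold change over its error, that was called was 4.46 in size with PBS and 4.06 with IL-4. At the errors of the members this asks for a log2 change of 1.06 to 5.70 with PBS (median 1.27) and of 0.65 to 4.42 with IL-4 (median 0.79). With 2 mice on each side, estimates below these sizes were not called. These sizes bound the estimated change and not the true one.

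**Figure D2:**
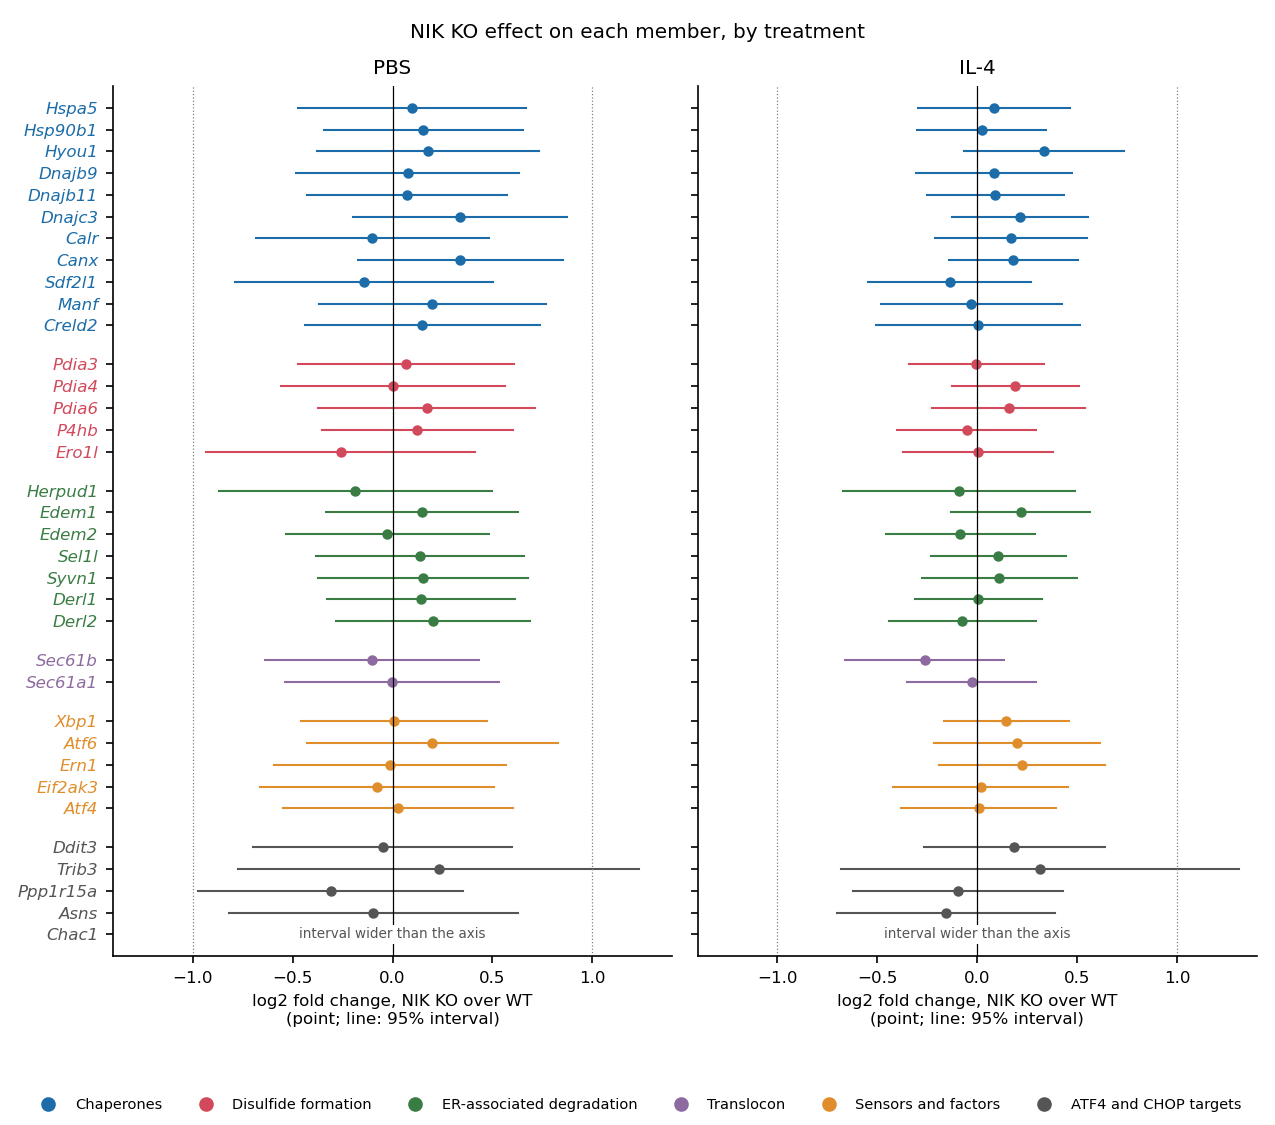
Log2 fold change of NIK KO over WT for each of the 35 members with PBS (left panel) and IL-4 (right panel), in colours by class, with the 95% interval as a line and 2-fold changes as dotted lines. All drawn intervals cross 0; Trib3 alone among the drawn genes reaches past 2-fold, and Chac1, with an interval wider than the axis, is not drawn.

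**Figure D3:**
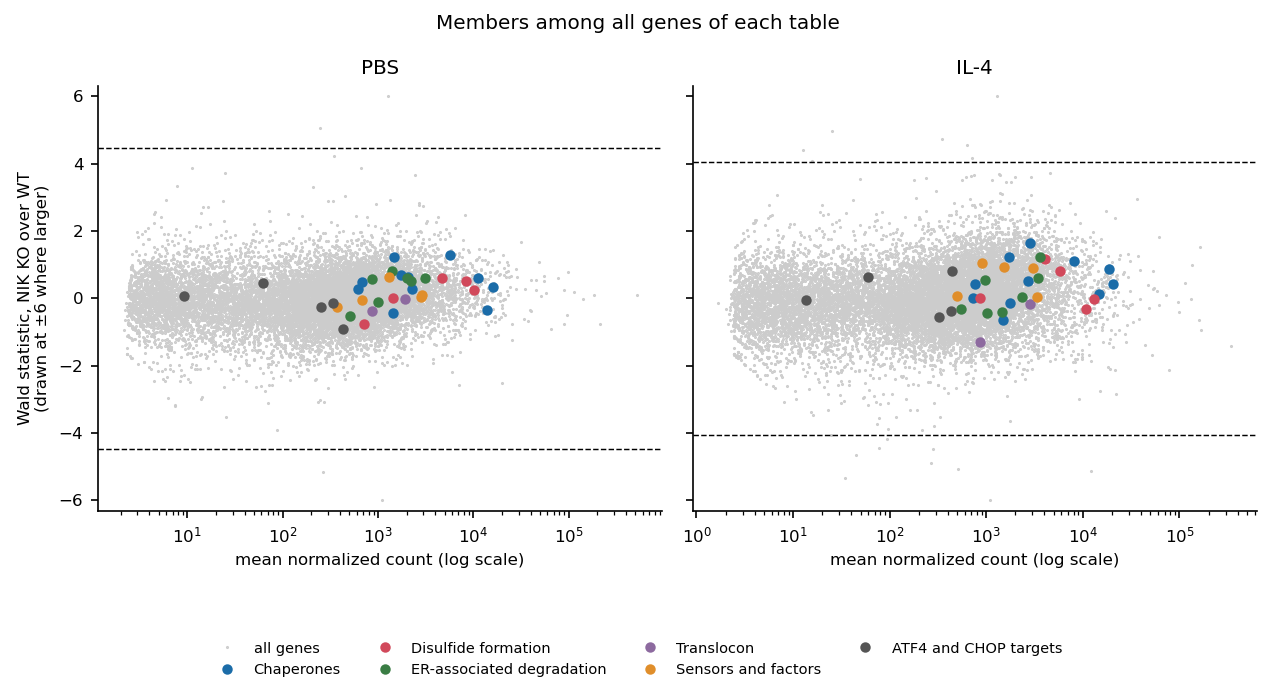
Wald statistic of NIK KO over WT against the mean normalized count for all genes (grey) and the members (colours by class), with PBS (left panel) and IL-4 (right panel). Dashed lines give the smallest statistic called, 4.46 and 4.06 in size, and statistics past 6 are drawn at 6; the members stay within 1.64.

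The chaperones hold nascent chains in the ER until they are folded, and 9 of 11 had a positive log2 fold change with each treatment. Their median was 0.15 with PBS and 0.08 with IL-4, beside -0.010 and -0.0064 for all genes, and 0.00026 and 0.012 for genes with a base mean of 100 or more. Of all genes, 48.3% were higher with PBS and 48.9% with IL-4, and of genes with a base mean of 100 or more 50.1% and 52.8%. Hspa5, the Hsp70 of the ER known as BiP, had mean normalized counts of 20854 in those labelled NIK KO and 19683 in WT with IL-4, and of 16664 and 15552 with PBS, as recovered from the authors' deposited tables. The genotypes differed by 0.08 ± 0.19 with IL-4 and 0.10 ± 0.29 with PBS on the log2 scale, well inside the errors in the authors' deposited tables.

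Hyou1, an ER chaperone of the Hsp110 family that exchanges the nucleotide of BiP, had the largest Wald statistic of all members with IL-4. It stood at 3188 in the libraries labelled NIK KO and 2528 in WT with IL-4, and at 2207 and 1952 with PBS, as recovered from the authors' deposited tables. The difference with IL-4 was 0.33 ± 0.20 in the authors' deposited table (DESeq2 p = 0.1002, adjusted p = 1.00), and its interval runs from 0.956-fold to 1.66-fold. Canx, the lectin calnexin that binds glycoproteins in the membrane, was largest with PBS in the authors' deposited table, at 6434 in the libraries labelled NIK KO and 5086 in WT (0.34 ± 0.26, DESeq2 adjusted p = 1.00). With IL-4 Canx was at 0.18 ± 0.16 in the authors' deposited table. Calr, its soluble relative calreticulin, was at 0.17 ± 0.19 with IL-4 and -0.10 ± 0.30 with PBS in the authors' deposited tables.

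The J-domain cochaperones of BiP varied less among themselves than their errors. Dnajc3, which also restrains PERK, was at 0.21 ± 0.17 with IL-4 and 0.34 ± 0.27 with PBS in the authors' deposited tables. Dnajb9 was at 0.08 ± 0.20 and 0.08 ± 0.28, and Dnajb11 at 0.09 ± 0.17 and 0.07 ± 0.25, in the same order and tables. Hsp90b1, the ER form of Hsp90, was at 0.02 ± 0.16 with IL-4 and 0.15 ± 0.25 with PBS in the authors' deposited tables. Sdf2l1, which works with Dnajb11, was the chaperone gene with a negative value in both, -0.14 ± 0.21 and -0.14 ± 0.33. The secreted stress-response proteins Manf and Creld2 were at -0.03 ± 0.23 and 0.0043 ± 0.26 with IL-4 and at 0.20 ± 0.29 and 0.15 ± 0.30 with PBS in the authors' deposited tables.

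Disulfide formation pairs the isomerases, which place and shuffle disulfide bonds, with the oxidase Ero1l, which recharges them. In this class 3 of 5 genes were positive with IL-4 and 4 of 5 with PBS, with medians of 0.0044 and 0.068. Pdia3, the isomerase that works with calnexin and calreticulin on glycoproteins, was at -0.0053 ± 0.17 and 0.07 ± 0.27 in the authors' deposited tables. P4hb, the classical protein disulfide isomerase, was at -0.05 ± 0.18 and 0.12 ± 0.24, and Pdia6 at 0.16 ± 0.19 and 0.17 ± 0.28. Pdia4 was at 0.19 ± 0.16 with IL-4 and 0.0023 ± 0.29 with PBS in the authors' deposited tables. Ero1l was at 0.0044 ± 0.19 with IL-4 and -0.26 ± 0.34 with PBS, 653 mean normalized counts in the libraries labelled NIK KO and 782 in WT, in the authors' deposited tables.

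In ER-associated degradation, misfolded proteins are marked, drawn back to the cytosol and ubiquitinated, and 4 of 7 genes were positive with IL-4 and 5 of 7 with PBS (medians 0.0052 and 0.14). Edem1, which trims mannose from misfolded glycoproteins, was highest with IL-4 at 0.22 ± 0.18, and at 0.15 ± 0.25 with PBS, in the authors' deposited tables. Edem2, a mannosidase of the same family, was at -0.08 ± 0.19 and -0.03 ± 0.26. Sel1l and Syvn1, the adaptor and the ligase of 1 membrane complex, were at 0.11 ± 0.17 and 0.11 ± 0.20 with IL-4 and at 0.14 ± 0.26 and 0.15 ± 0.27 with PBS in the authors' deposited tables. The derlin genes, which encode membrane proteins of the exit route, were at 0.0052 ± 0.16 (Derl1) and -0.07 ± 0.19 (Derl2) with IL-4 and at 0.14 ± 0.24 and 0.20 ± 0.25 with PBS. Herpud1, a stress-induced scaffold of that complex, was negative in both of the authors' deposited tables, -0.09 ± 0.30 with IL-4 and -0.19 ± 0.35 with PBS.

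The translocon, the channel by which new chains enter the ER, was the class with both members negative under both treatments, within error. Sec61b, its small beta subunit, was at 786 in the libraries labelled NIK KO and 943 in WT with IL-4 (-0.26 ± 0.20, DESeq2 p = 0.194) and at 836 and 898 with PBS (-0.10 ± 0.27) in the authors' deposited tables. Sec61a1, the pore subunit, was at -0.03 ± 0.17 and -0.0043 ± 0.27. Of the 31-base words in the longest Sec61b transcript, 19.5% also occur in transcripts of other genes, the highest share of any member, so some of its reads could have been assigned elsewhere. Dnajb9 had 11.3%, Derl1 9.09% and Ddit3 8.31%, and 31 members had under 5%. Most of the share of Ddit3, 7.99%, was with another annotation entry of the same name.

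The sensors and their transcription factors were the class with all 5 members positive with IL-4 and 3 of 5 with PBS (medians 0.14 and 0.0080). Ern1 stood at 977 in the libraries labelled NIK KO and 837 in WT with IL-4 (0.22 ± 0.21, DESeq2 p = 0.292) and at 678 and 684 with PBS (-0.01 ± 0.30) in the authors' deposited tables. Xbp1, whose mRNA IRE1 splices, was at 0.14 ± 0.16 with IL-4 and 0.0080 ± 0.24 with PBS; counts per gene do not tell its spliced form from the unspliced. Atf6 was at 0.20 ± 0.21 and 0.20 ± 0.32 in the authors' deposited tables. On the PERK arm Eif2ak3 was at 0.02 ± 0.22 with IL-4 and -0.08 ± 0.30 with PBS, and Atf4, which is controlled mainly in translation, at 0.0085 ± 0.20 and 0.03 ± 0.29.

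The targets of ATF4 and CHOP were the least precise class, with standard errors up to 1.09 with IL-4 and 1.28 with PBS, and 2 of 5 were positive under each treatment (medians -0.06 and -0.05). Ddit3, the gene of CHOP, was at 468 in the libraries labelled NIK KO and 411 in WT with IL-4 (0.19 ± 0.23) and at 334 and 346 with PBS (-0.05 ± 0.33) in the authors' deposited tables. Ppp1r15a, whose product GADD34 ends the translational block, was at -0.10 ± 0.27 and -0.31 ± 0.34, the lowest value of any member with PBS. Asns, asparagine synthetase, was at -0.16 ± 0.28 and -0.10 ± 0.37. Trib3, a pseudokinase, averaged 65.5 in the libraries labelled NIK KO and 52.7 in WT with IL-4 (0.32 ± 0.51), and Chac1, which degrades glutathione, 13.3 and 13.9 (-0.06 ± 1.09), in the authors' deposited table.

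The genotype effect was not shown to differ between the treatments for any member. The difference of the log2 fold changes, IL-4 minus PBS, was tested with a two-sided z test over the 13384 genes in both tables. Of the 35 members 0 passed at a Benjamini-Hochberg adjusted p under 0.05 and 0 at an unadjusted p under 0.05, where 0.0149% and 0.867% of all genes did. The largest was that of Derl2, -0.28 ± 0.31 (adjusted p = 1.00), followed by Calr at 0.27 ± 0.36 and Ero1l at 0.26 ± 0.39. The test takes the errors of the tables as independent although the mice are shared.

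Members with the ER stress element were also set beside those without it. The genes were chosen for the response in which this element acts, and most carriers are chaperones. These counts thus overlap those of the chaperone class and are no separate evidence. With IL-4 all 8 carriers were positive, between 0.0043 and 0.21 with a median of 0.13, against 12 of 22 others with a listed promoter (median 0.0064). With PBS 7 of 8 carriers were positive (median 0.15) and 12 of 22 others (median 0.0051). Carriers of the C/EBP-ATF element had medians of -0.07 with IL-4 and -0.0084 with PBS, 1 of 4 and 2 of 4 positive. The ranges overlap and no single gene passed, so these are descriptions of the values only.

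Transcript length moved with the genotype values of genes at large with IL-4, but hardly with PBS. Across genes with a base mean of 100 or more, the log2 fold change had a Pearson correlation with the log2 length of the longest transcript of 0.34 with IL-4 (9503 genes) and 0.019 with PBS (9256 genes). Across the 35 members it was 0.48 and 0.36. These points share libraries and are no independent replicates. Sec61b has the shortest transcript, 0.723 kb, and the lowest value with IL-4, while Atf6 and Ern1 have 7.25 and 6.95 kb and stood on the high side there. Other members went against this order. With IL-4 Ddit3, of 0.969 kb, was at 0.19 and Trib3, of 2.03 kb, at 0.32, and with PBS Ern1 was at -0.01. After the median of genes of similar length was subtracted, the median of the sensors with IL-4 was 0.10, that of the chaperones 0.11 and that of the translocon -0.03. The part of length in the genotype values was not tested further.

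Fibroblast and erythroid markers had lower sums in the libraries labelled NIK KO with IL-4, where DESeq2 called 1 of 9 fibroblast and 0 of 6 erythroid markers (5 and 4 at an unadjusted p under 0.05). The 9 of 10 fibroblast markers with a row summed to 191 mean normalized counts in the libraries labelled NIK KO and 522 in WT with IL-4, 8 of them lower, and 8 of 10 to 127 and 144 with PBS. The 6 of 9 erythroid markers with a row summed to 158 and 344 with IL-4, and 5 of 9 to 103 and 96.1 with PBS. With IL-4 4 of the 6, all globin genes, were lower, and 2, Alas2 and Slc4a1, were higher at low counts. The 5 B and plasma cell markers with a row summed to 1592 and 1407 with IL-4, and the 5 with a row there to 3409 and 2935 with PBS. Sdc1 gave 1220.0 and 1069 of these with IL-4 and 3068 and 2671 with PBS. Neutrophil markers with a row (6 of 10) summed to 213 and 292 with IL-4, T and NK cell markers (3 of 9) to 44.8 and 37.1, mast cell and basophil markers (2 of 7) to 50.2 and 34.7, and dendritic cell markers (6 of 7) to 113 and 129. With PBS these were 205 and 236 (8 of 10), 36.3 and 32.5 (2 of 9), 25.9 and 33.0 (2 of 7), and 76.5 and 74.2 (6 of 7). The members themselves summed to 139507 and 132038 with IL-4. The part of such cells in the values above was not tested, and in bulk RNA fewer cells of a type and less RNA per cell cannot be told apart.

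Levels spanned a far wider range over genes than over genotypes, a description with no test. Per kilobase of longest transcript, Calr was highest, at 9135 mean normalized counts in the libraries labelled NIK KO and 8118 in WT with IL-4, and at 6177 and 6623 with PBS. Hspa5 followed with 5679 and 5360.2 per kilobase with IL-4, and then Pdia3 with 4652 and 4669 and Hsp90b1 with 4559.9 and 4489, neighbours whose order cannot be tested without values per library. The class medians per kilobase with IL-4 were highest for disulfide formation, at 2786 in the libraries labelled NIK KO and 2498 in WT, and 1118 and 1051 for the chaperones. They were 990.4 and 1108 for the translocon, 431 and 457 for ER-associated degradation, 227 and 197 for the sensors and factors, and 149 and 159.5 for the ATF4 and CHOP targets.

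Within the sensor class the transcription factors stood far above the sensors. Atf4 and Xbp1 were at 1660.4 and 1507 mean normalized counts per kilobase in the libraries labelled NIK KO with IL-4 (1651 and 1363 in WT). Atf6, Ern1 and Eif2ak3 were at 227, 141 and 111 per kilobase there (197, 120.5 and 110.1 in WT). Chac1 was lowest of all members, at 8.14 in the libraries labelled NIK KO and 8.48 in WT per kilobase. Together the 35 genes took up 0.836% of all normalized counts in the libraries labelled NIK KO and 0.804% in WT with IL-4, and 0.765% and 0.735% with PBS.

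**Figure D4:**
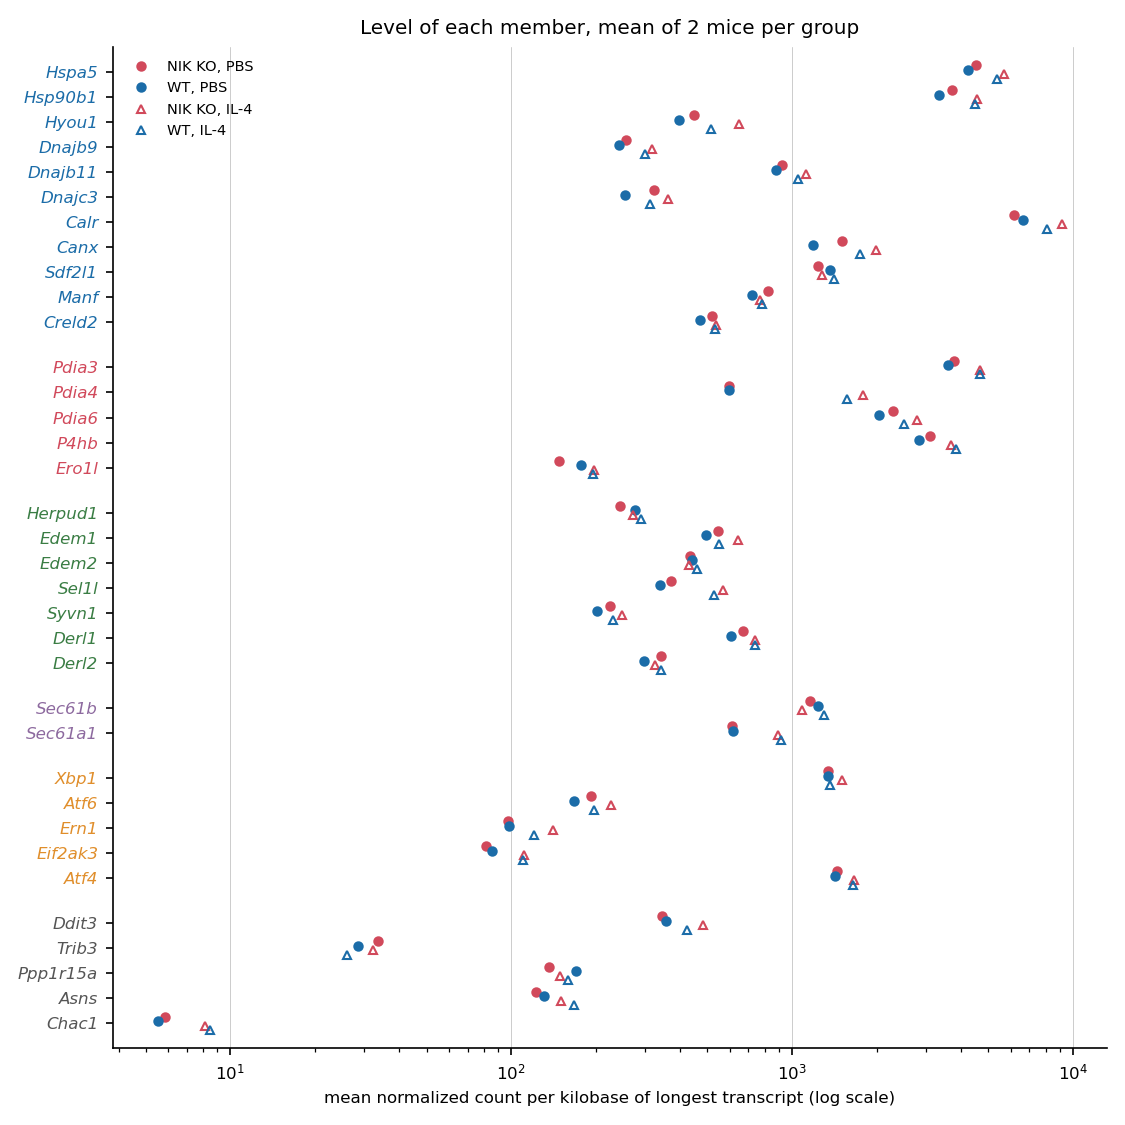
Mean normalized count per kilobase of longest transcript (log scale) for each member in the 4 groups, NIK KO in red and WT in blue, PBS as filled circles and IL-4 as open triangles. The span over genes, from 5.53 (Chac1) to 9135 (Calr), far exceeds the distance between genotypes at any gene.

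With IL-4 most members stood about as much above PBS as other genes did, and Pdia4 stood farthest above it. These ratios set tables normalized separately side by side and have no test. The median ratio of IL-4 over PBS was 1.21 for the 35 members and 1.21 for the 9148 genes with a base mean of 100 or more in both tables. Pdia4, singled out after its value was seen, had a mean normalized count of 4304 with IL-4 against 1436 with PBS in those labelled NIK KO, and in WT 3772 against 1434. That is 2.997-fold and 2.63-fold, and 98.6% of the 9148 genes had a lower ratio. The other isomerases Pdia3, Pdia6 and P4hb had ratios of 1.26, 1.22 and 1.27, and Hspa5 had 1.26.

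Besides Pdia4, Sel1l reached 1.5, at 1.54, a mark that 14.0% of those 9148 genes reached. Sec61a1 followed at 1.47, Chac1 at 1.46 and Canx at 1.39. Chac1 had base means of only 13.6 with IL-4 and 9.31 with PBS. At the other end Trib3 was at 0.939, Sec61b at 0.998, Manf at 1.01 and Ppp1r15a at 1.01, below the general median of 1.21. Xbp1, Atf4 and Ddit3 were at 1.07, 1.15 and 1.29. The 8 carriers of the ER stress element had ratios from 1.08 to 1.39, and the promoter window of Pdia4 holds neither ER stress element, nor the UPR core, C/EBP-ATF or STAT6 element.

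**Figure D5:**
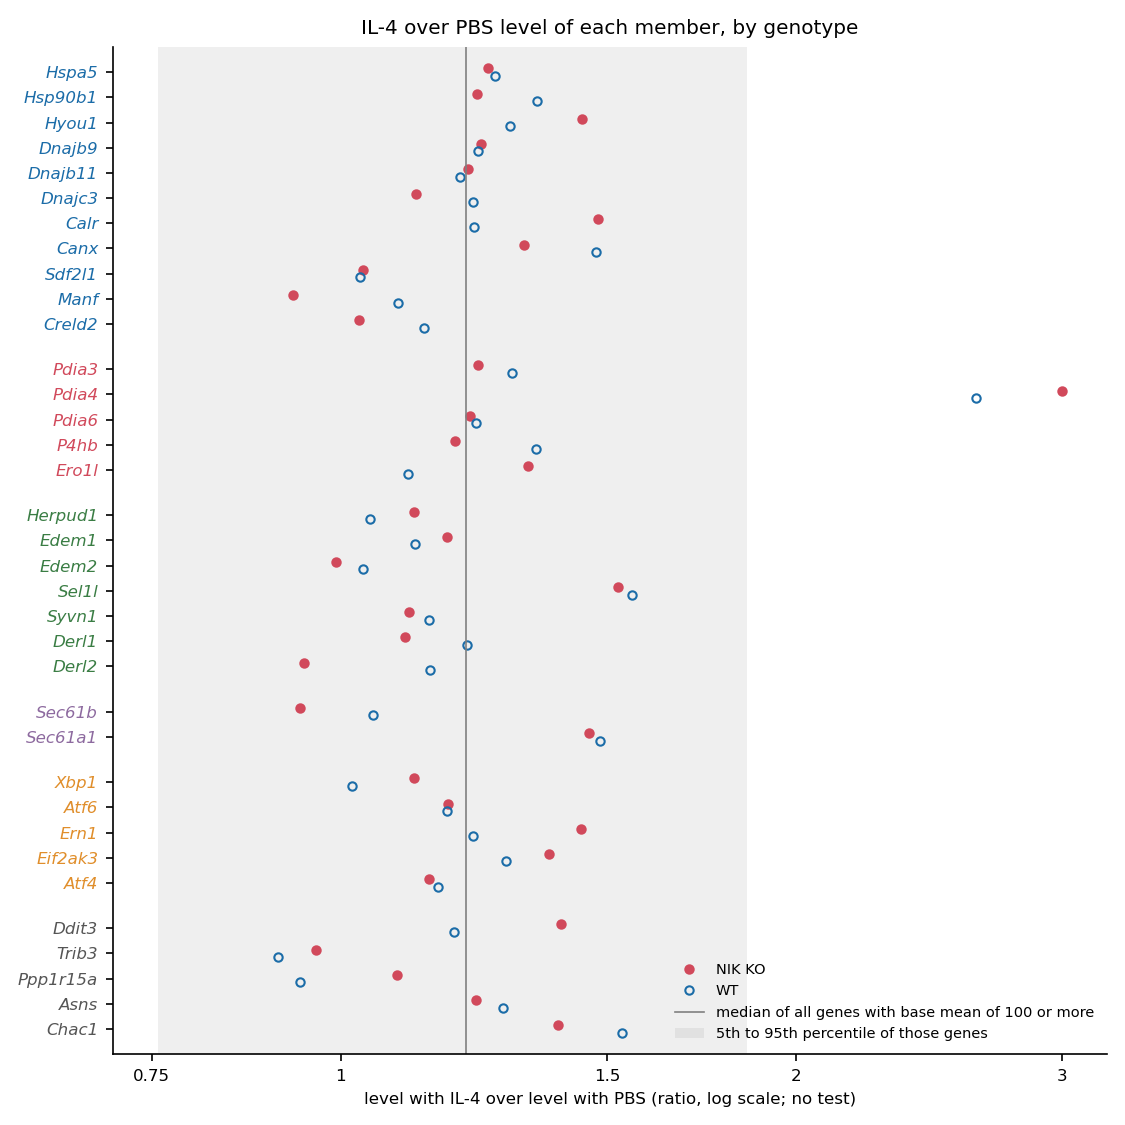
Ratio of the level with IL-4 over that with PBS (log scale) for each member in NIK KO (filled) and WT (open); the line is the median of 9148 genes, 1.21, and the shaded band runs from their 5th to their 95th percentile, 0.757 to 1.86. Pdia4 alone lies outside the band, at 2.997 in NIK KO and 2.63 in WT.

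A wider list of 124 genes of the same pathways was read the same way. Of the 119 measured, DESeq2 called 0 higher and 0 lower under each treatment and 0 had an unadjusted p under 0.05. With IL-4 62 were higher and with PBS 69, with medians of 0.0048 and 0.023. By class the wider list did not always lean as the 35 genes do. Its other chaperones were higher in 7 of 16 with IL-4 (median -0.0086) and in 8 of 16 with PBS (0.0036), beside 9 of 11 among the members under each treatment. Its other ATF4 and CHOP targets were higher in 21 of 29 (0.027) and 18 of 29 (0.036), beside 2 of 5. The other classes counted 4 and 7 higher of 14 for disulfide formation, 13 and 16 of 23 for ER-associated degradation, 7 and 12 of 21 for the translocon and 10 and 8 of 16 for the sensors, with IL-4 and with PBS. The values with the largest Wald statistic of each class were, with IL-4, those of the prolyl isomerase Fkbp2 (-0.38 ± 0.22) and the glycoprotein folding sensor Uggt1 (0.27 ± 0.17), and of the peroxiredoxin Prdx4 (-0.24 ± 0.18) and Erp29 (-0.14 ± 0.16) in the authors' deposited table. For degradation they were Nploc4, a cofactor of the VCP segregase (0.28 ± 0.18), and Herpud2 (0.21 ± 0.20), and for the translocon Ssr4 (-0.30 ± 0.21) and Krtcap2 (-0.33 ± 0.24) in the authors' deposited table. For sensors they were Bcap31 (-0.24 ± 0.17) and the ATF6 relative Atf6b (0.25 ± 0.18), and for ATF4 targets Gpt2 (0.49 ± 0.35) and Sars (-0.23 ± 0.17) in the authors' deposited table.

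With PBS the same rule gave Uggt1 (-0.39 ± 0.26), the prolyl isomerase Ppib (-0.28 ± 0.26), Erp29 (0.32 ± 0.29) and the oxidase Ero1lb (0.27 ± 0.27) in the authors' deposited table. It also gave Derl3 (2.18 ± 1.23, at 14.99 against 3.31 mean normalized counts), Nploc4 (0.44 ± 0.26), Spcs1 of the signal peptidase (0.39 ± 0.27) and Srpr, a receptor of the signal recognition particle (0.27 ± 0.25). Eif2ak4, the amino acid sensor GCN2 (-0.23 ± 0.31), Mbtps1, a protease that cuts ATF6 (-0.22 ± 0.28), the leucine transporter gene Slc7a5 (0.51 ± 0.45) and Eif4ebp1 (-0.33 ± 0.30) completed it in the authors' deposited table. Uggt1 had opposite signs under the treatments, a difference of 0.66 ± 0.31 (z = 2.15, adjusted p = 1.00), which did not pass.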

How the data were processed

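RNA of 8 libraries had been compared by genotype within each treatment, 2 mice against 2. The submitters' processing notes name build GRCm39, DESeq2 1.32.0 and Salmon 1.4.0, without their roles, an annotation or filters. The tables the authors deposited give, per the file headers, a base mean (a signal: counts over size factors), a log2 fold change and its standard error, a Wald score, and a p-value with its adjusted value. The Wald score equalled the fold change over its error to within 1.4e-07. Adjusted p is missing for 551 genes with IL-4.

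Group means were recovered from base mean and fold change. Class medians carry no test. The z test on treatments was adjusted over all shared genes. It was also run on simulated data with independent errors for the treatments, which does not cover the shared mice. Transcript lengths and shared words came from GENCODE M21 (GRCm38), which is not the authors' build. Of the wider list, the 2 genes of each class with the largest Wald statistic per table were named. The members and lists were chosen with earlier results of these data known. Libraries of a group came from separate mice; the same mice stand behind both treatments. Every listed member is named. Alternative thresholds, filters and centrings are given in the closing section, protein sequences were not used here, and 1 marker gene is not reported here. Python 3.11.15, numpy 2.4.6, pandas 2.3.3, scipy 1.17.1, statsmodels 0.14.6 and matplotlib 3.10.9 were used.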

Additional observations from a re-analysis of the deposited data

How the results depend on the processing

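The count of members called was 0 in both tables and for the treatment difference under all 12 alternatives run: an adjusted p under 0.1, an unadjusted p under 0.05, a t distribution with 2 degrees of freedom, only genes with a base mean of 10 or more, errors correlated by 0.5 between the tables, and centring on each table's median. The smallest unadjusted p of a member was 0.196 with PBS and 0.1002 with IL-4 (DESeq2), and 0.372 for the difference (z test). At such values the thresholds, the t distribution and the filter could return only 0, so these counts are no separate support. The 14 class and overall medians moved by at most 0.206 on the log2 scale over 70 alternatives, in each case less than the median standard error of the same class. That error belongs to the fold change of a single gene and does not measure the uncertainty of a class median. In 7 of the 70 the sign turned, for medians of at most 0.0591 in size. That of the ATF4 and CHOP targets with IL-4 was 0.15, 0.04 and 0.03 after subtraction of the median of genes of similar base mean or length and as a weighted mean, against -0.06; with PBS it was 0.0026 after subtraction by length. Subtraction by base mean gave -0.03 for the sensors with PBS, and -0.02 and -0.05 for disulfide formation and ER-associated degradation with IL-4. Scaling base means by their sum gave a log2 ratio of 1.27 in place of 1.49 for Pdia4 and 0.049 in place of 0.27 for the members' median. Counting a present-day symbol for a missing one was not run, since Ero1l is present. No paired analysis was possible because the tables hold 1 value per gene and comparison, and for the same reason no replicate could be left out. With 2 mice on each side and unknown depth, only estimated changes of the size given beside the intervals could be called at an adjusted p under 0.05.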
